A study of Mus musculus with 7 samples.

Results

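Cells detect a break or a blocked replication fork with the kinases ATM and ATR, which act through the checkpoint kinases CHK1 and CHK2, and then mend the lesion along one of several routes. Homologous recombination copies the sister chromatid and is used mostly after replication, whereas non-homologous end joining religates broken ends at any time of the cell cycle. The Fanconi anemia proteins unhook DNA crosslinks, and base excision, single-strand break and mismatch repair replace damaged or wrong bases. The 37 genes described here act in these routes. They were chosen by symbol out of the 33696 genes in the count tables: 8 genes for damage kinases and mediators, 11 for homologous recombination, 3 for the Fanconi anemia pathway, 6 for end joining, and 9 for base excision, single-strand break and mismatch repair. Of the 37 genes, 31 were higher in cycling than in non-cycling tumor cells, where 37.5% of all genes tested were called higher and 37.0% lower. The end-joining genes Xrcc5 and Dclre1c differed most between tumor cells and macrophages. None of the 37 was called between irradiated and control tumors, where 0% of all genes were called.

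Tumors were allografts of JW23.3, a mouse malignant peripheral nerve sheath tumor (MPNST) line mutant for Nf1 and Trp53, in the flanks of female wildtype C57/B6 mice aged 5 to 6 weeks. The irradiated group held 4 tumors that received 5 daily fractions of 2 Gy with the rest of the animal shielded, and the control group held 3 tumors that were not irradiated. Both groups carried the same single mutant line, were randomized on day 7 and were harvested on day 21, so damage was not measured right after a fraction. Each tumor gave 1 droplet-based 3' library, in which unique molecular identifiers (UMIs) count captured transcripts.

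The 7 libraries held 39537 cells and 646559899 UMIs, with a median of 6058.5 to 17930.5 UMIs per cell. After filtering, 34296 cells remained. Counts of markers of each class placed 14717 of them as tumor cells, 11350 as macrophages and 1397 as T/NK cells, and 6832 were not placed. Tumor cells were required to lack Xist, the transcript of the inactive X chromosome of the female host. Of the host cells, for which Xist played no part in the gate, 90.3% of macrophages and 89.9% of T/NK cells had an Xist UMI. A cell was called cycling when it held UMIs of both Mki67 and Top2a, 2 genes transcribed in proliferating cells, and non-cycling when it held neither. This gave 2360 cycling and 9867 non-cycling tumor cells, 788 and 9417 macrophages, and 72 and 1027 T/NK cells. Cycling cells were deeper, with library medians of 30609 to 51688.5 UMIs against 12083 to 24870 in tumor cells, 10061 to 21492 against 3740 to 11052 in macrophages, and 4685.5 to 16114 against 1838 to 4551.5 in T/NK cells. UMIs were summed per tumor and stratum, a stratum being a cell class in one cycling state, and levels are given as CPM, the UMIs of the gene per 1000000 UMIs of that sum. Levels are compared only within a gene, across cells. Log2 fold changes come from the edgeR fits, which rescale each sum (TMM), whereas CPM is not rescaled. A log2 fold change can therefore differ from the ratio of the CPM beside it, most of all between cells of unlike make-up. A gene was called when edgeR's quasi-likelihood test gave a Benjamini-Hochberg adjusted p below 0.05 over all genes tested. These p-values measure the spread between 7 tumors of 1 line.

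Promoter sequence was available from RefSeq (GRCm38.p6) for 31 of the 37 genes, as windows of 250 bases before and 50 bases after the transcription start. Rad50, Nbn, Fancd2, Prkdc, Polb and H2ax had no entry. The upstream 250 bases are shown for 3 genes whose levels stand for the 3 patterns described in the results, a choice made after the values were seen: Neil3 (cycling cells of every class), Brca1 (cycling cells, higher in S-leaning ones) and Dclre1c (macrophages, cycling or not). Capitals mark the E2F-like site (TTT and CGC set apart by any 2 bases), the cell cycle homology region TTTGAA or TTCGAA, and the CCAAT box, on either strand.
Neil3, chr8:53639066-53639315, minus strand: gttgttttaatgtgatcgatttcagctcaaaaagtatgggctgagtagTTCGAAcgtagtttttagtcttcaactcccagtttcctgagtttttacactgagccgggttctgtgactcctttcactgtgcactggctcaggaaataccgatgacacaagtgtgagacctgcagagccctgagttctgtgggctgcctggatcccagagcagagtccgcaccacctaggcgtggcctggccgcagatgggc
Brca1, chr11:101551956-101552205, minus strand: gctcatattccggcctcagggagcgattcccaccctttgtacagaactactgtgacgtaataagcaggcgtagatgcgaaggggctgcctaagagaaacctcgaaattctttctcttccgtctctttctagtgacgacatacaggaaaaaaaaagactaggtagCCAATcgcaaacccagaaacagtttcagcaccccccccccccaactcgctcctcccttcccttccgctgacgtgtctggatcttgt
Dclre1c, chr2:3423881-3424130, plus strand: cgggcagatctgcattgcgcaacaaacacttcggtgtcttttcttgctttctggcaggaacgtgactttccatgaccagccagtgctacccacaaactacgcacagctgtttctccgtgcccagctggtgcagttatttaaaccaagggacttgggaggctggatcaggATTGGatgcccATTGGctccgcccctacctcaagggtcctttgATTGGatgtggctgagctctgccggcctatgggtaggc
The Neil3 sequence held 1 TTCGAA, the Brca1 sequence held 1 CCAAT and the Dclre1c sequence held 3 CCAAT boxes, read as ATTGG on the strand shown. The E2F-like letters occurred in the windows of 7 of the 31 genes (22.6%), against 5.93% of the 27025 genes with a window. They were Brca2, Chek2, Lig1, Mdc1, Msh6, Topbp1 and Xrcc6. All 7 were higher in cycling than in non-cycling tumor cells, as were 31 of the 37 members in all. Neil3, Fanci, Brca1, Rad54l and Fanca had larger cycling differences than any of the 7 and no E2F-like letters in their windows. The matches that lay before the start are shown with the bases around them, E2F-like letters in capitals.
Chek2, chr5:110839815-110839854, plus strand: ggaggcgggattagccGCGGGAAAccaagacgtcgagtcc
Mdc1, chr17:35841466-35841497, plus strand: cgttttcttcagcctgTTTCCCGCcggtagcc
Brca2, chr5:150522437-150522476, plus strand: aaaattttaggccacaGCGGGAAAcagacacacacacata
Xrcc6, chr15:82016198-82016237, plus strand: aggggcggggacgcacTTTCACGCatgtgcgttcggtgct
Xrcc6, chr15:82016307-82016346, plus strand: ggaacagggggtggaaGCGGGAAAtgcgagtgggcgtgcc
Topbp1, chr9:103305182-103305221, plus strand: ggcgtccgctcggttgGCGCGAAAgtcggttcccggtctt
The cell cycle homology region occurred in 3 of the 31 genes (9.68%, against 21.7% of all genes) and the CCAAT box in 16 (51.6%, against 41.1%). A match in these letters is a description of the sequence and was not read as a bound site.

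In tumor cells, 31 of the 37 repair genes were higher in cycling than in non-cycling cells, 2 were lower and 4 were not called. Over all 16148 genes tested, 37.5% were called higher and 37.0% lower. The members' median log2 fold change was 1.38, against -0.02 over all genes. With every cell thinned to 3000 UMIs before the cycling call, 29 members were higher and 2 lower, with a median of 0.94. The Fanconi anemia genes had the highest median of the 5 roles (4.46, all 3 higher), followed by homologous recombination (1.89, 10 of 11 higher), damage kinases and mediators (1.44, 7 higher and 1 lower of 8), base excision, single-strand break and mismatch repair (1.42, 8 of 9 higher) and end joining (0.19, 3 higher and 1 lower of 6).

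Neil3, a glycosylase that removes oxidized bases and unhooks crosslinks, differed most. Its level in cycling tumor cells was 123, 86.6, 109 and 119 CPM in irradiated tumors 1 to 4 and 100, 95.1 and 117 CPM in control tumors 1 to 3. In non-cycling tumor cells the level was 0.269 to 0.924 CPM, so that the states did not overlap in any tumor. The log2 fold change was 8.01 ± 0.12 (SE, 7 tumors). Cycling cells made up 16% of the tumor cells and held 27.0% of their UMIs, but 94.7% of the Neil3 UMIs. Depth moved with the cycling call, which rests on UMIs of 2 genes. With thinned cells the Neil3 value was 4.73 and was still called.

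Fancd2 and Fanci, the pair that is ubiquitinated on crosslinked DNA, and Fanca, a subunit of the ligase that acts on them, were the next role in size. Fancd2 stood at 25.3 ± 3.57 CPM (SD, n = 7) in cycling and 0.302 ± 0.166 CPM in non-cycling tumor cells, and 89.3% of its UMIs came from cycling cells (log2 fold change 6.35, and 4.03 with thinned cells). Fanci was at 12.4 ± 2.06 against 0.608 ± 0.240 CPM (4.46 ± 0.19, SE) and Fanca at 28.6 ± 6.76 against 2.41 ± 0.654 CPM (3.75 ± 0.09, SE), and with thinned cells their values were 3.46 and 2.74.

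Of the homologous recombination genes, Brca1, which commits ends to resection, was at 68.1, 66.5, 72.1 and 78.3 CPM in cycling cells of irradiated tumors 1 to 4 and 55.8, 61.9 and 71.8 CPM in those of controls 1 to 3. Non-cycling cells of the same tumors lay between 3.15 and 5.30 CPM, a log2 fold change of 4.28 ± 0.07 (SE). Rad54l, a motor protein of strand exchange, followed at 3.92 ± 0.10, and Brca2, a tumor suppressor gene, at 2.90 ± 0.08 (66.8 ± 11.1 against 9.85 ± 1.06 CPM). With thinned cells these 3 values were 3.04 for Brca1, 2.86 for Rad54l and 2.47 for Brca2, all still called. Palb2, the bridge between BRCA1 and BRCA2, was higher by 2.01. Rpa1 and Rpa2, subunits of the single-strand binding protein RPA, were higher by 1.89 and 2.53. The end-binding complex moved less, with 1.38 for the nuclease gene Mre11a, 0.82 for Nbn and 0.52 for Rad50. Rad52, which anneals single strands, was at 13.3 ± 1.65 CPM in cycling and 14.8 ± 1.87 CPM in non-cycling cells and was not called.

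Among the damage kinases and mediators, the histone variant gene H2ax (2.74), the checkpoint kinase gene Chek1 (2.41), the ATR activator Topbp1 (1.99), the scaffold Mdc1 (1.75) and Chek2 (1.13) were higher in cycling tumor cells. The kinase genes Atr and Atm were higher by 0.54 and 0.45. Trp53bp1, whose product 53BP1 shields ends from resection, went the other way: 29.3, 33.0, 33.9 and 49.8 CPM in cycling cells of irradiated tumors 1 to 4 and 33.6, 27.5 and 24.9 CPM in controls 1 to 3, against 38.7 to 57.4 CPM in non-cycling cells (-0.36, called lower). Only 20.7% of its UMIs came from cycling cells, below the 27.0% of all UMIs.

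End joining was the role with the smallest cycling difference. Xrcc5, which encodes KU80, was at 60.9 ± 5.32 CPM in cycling and 64.8 ± 6.90 CPM in non-cycling tumor cells and was not called. Dclre1c, the ARTEMIS nuclease gene, was not called either (-0.07 ± 0.09, SE). Its value was 0.38 with thinned cells (called higher), 0.45 with stricter class gates and -0.18 with a cycling rule of 2 or more UMIs of Mki67 and Top2a together (called lower). Xrcc4, the partner of DNA ligase IV, was lower (-0.29), whereas the KU70 gene Xrcc6 (0.87), the ligase gene Lig4 (0.83) and Prkdc, the DNA-PK catalytic subunit (0.30), were higher.

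In the last role, Lig1, the ligase of lagging-strand synthesis and long-patch repair, was higher by 3.03 (96.1 ± 9.28 against 13.4 ± 2.88 CPM; 2.04 with thinned cells). The uracil glycosylase gene Ung (2.40), the mismatch sensor Msh6 (1.58), the strand break sensors Parp1 (1.42) and Parp2 (1.30), the scaffold Xrcc1 (0.68) and Lig3 (0.22) were also higher. Polb, the polymerase of short-patch base excision repair, was at 50.9 ± 4.55 CPM in cycling and 57.5 ± 3.06 CPM in non-cycling cells and was not called (-0.01 ± 0.05, SE), but was called lower with thinned cells (-0.20). Of 114 further repair genes tested here, 76 were higher in cycling tumor cells, 21 were lower and 17 were not called, with a median of 0.64.

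**Figure D1:**
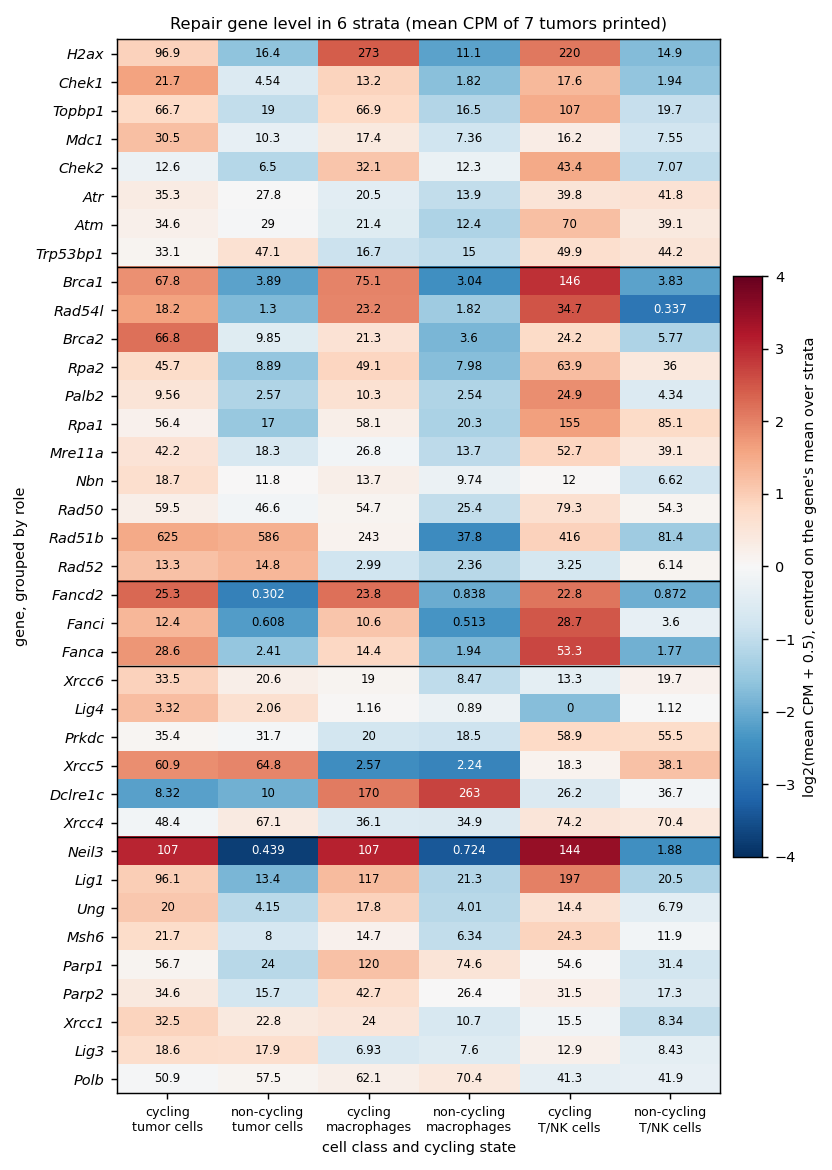
Level of the 37 repair genes in cycling and non-cycling tumor cells, macrophages and T/NK cells. Numbers are mean CPM over 7 tumors, and color is log2(mean CPM + 0.5) centred on the gene's mean over the 6 strata (red high, blue low), with genes grouped by role from top to bottom as damage kinases and mediators, homologous recombination, Fanconi anemia, end joining, and base excision, single-strand break and mismatch repair. Neil3 and Fancd2 are red in the 3 cycling columns, whereas Xrcc5 is blue and Dclre1c red in both macrophage columns.

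In macrophages, 27 of the 37 genes were higher in cycling cells and 2 were lower, where 49.9% of the 12222 genes tested were called (25.0% higher and 24.9% lower). Neil3 was again the gene with the largest difference, at 111, 93.5, 95.5 and 116 CPM in cycling macrophages of irradiated tumors 1 to 4 and 93.0, 132 and 111 CPM in controls 1 to 3, against 0.121 to 1.38 CPM in non-cycling macrophages (7.07 ± 0.14, SE, and 5.68 with thinned cells). Fancd2 (4.76, and 4.19 with thinned cells) and Brca1 (4.54, and 3.64) followed, and the medians by role were 4.25 for the Fanconi anemia genes, 1.96 for homologous recombination and 0.06 for end joining. The 2 genes that were lower were Dclre1c (170 ± 28.7 against 263 ± 42.0 CPM, -0.70 ± 0.06, SE) and Polb (-0.26 ± 0.07, SE, not called with stricter class gates).

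In T/NK cells the cycling stratum held only 5 to 20 cells per tumor, and 29 of the 37 genes had enough UMIs for the test. Of these, 14 were higher, 0 were lower and 15 were not called, where 19.6% of 6779 genes were called (8.67% higher and 10.9% lower). At an unadjusted p under 0.05 there were 16 members, against 2134 of all 6779 genes. The 14 genes were Brca1, Brca2, Chek1, Chek2, Fanca, Fancd2, Fanci, H2ax, Lig1, Neil3, Rad51b, Rad54l, Rpa1 and Topbp1, and all 14 were higher in cycling tumor cells and macrophages too. In those classes 31 and 27 of the 37 members were higher in any case. The share of all genes higher in all 3 classes was not counted. Some rested on few molecules. Neil3 had 104 UMIs in cycling and 6 in non-cycling T/NK cells, a ratio of pooled levels of 71.3 (95% exact interval 31.7 to 199, counting error only). Rad54l had 25 and 1 UMIs (ratio 103, 16.8 to 4225), and Fancd2 had 13 and 3 (ratio 17.8, 4.90 to 97.6). The filter for enough UMIs works on CPM, and the cycling sums were small (28148 to 270268 UMIs, against 319331 to 636461). Neil3, Rad54l and Fancd2 could pass it only through the cycling sums, where they were high. The split of 14 higher and 0 lower is therefore not free of the filter. With every gene with at least 1 UMI tested, 13 of the 37 were higher and 0 lower. The number of members called, 14 as reported, fell to 8 with thinned cells and to 5 with stricter class gates, both of which left fewer cells. Over all genes the calls fell from 1328 to 634 and to 99. Of the further repair genes, 74 of 114 were higher in cycling macrophages and 26 of 68 in cycling T/NK cells.

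**Figure D2:**
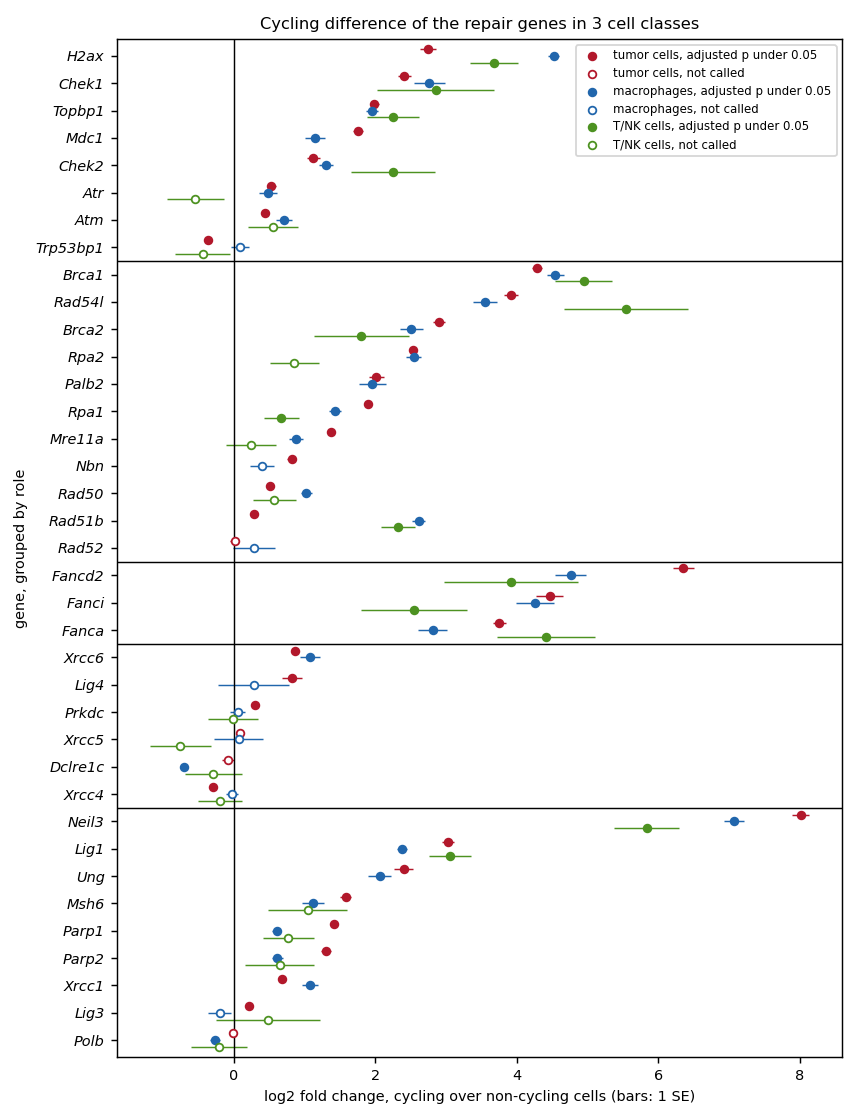
Log2 fold change of cycling over non-cycling cells for each repair gene in tumor cells (red), macrophages (blue) and T/NK cells (green), with bars of 1 SE and filled points for an adjusted p below 0.05. Genes are grouped by role in the order of the plot of levels. The largest values are those of Neil3 (8.01, 7.07 and 5.84) and the medians of the end-joining genes in tumor cells and macrophages are 0.19 and 0.06.

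Whether the cycling difference itself differed between tumor cells and macrophages was tested as an interaction. In the reported fit 21 of the 37 genes had a larger cycling difference in tumor cells and 3 a smaller one, where 44.0% of 16314 genes were called (36.5% larger and 7.47% smaller). This split did not hold. The all-gene median of the interaction was 0.36 in the reported fit and ran from -0.22 to 0.36 over the alternatives, and in 9 of the 16 settings more members were called smaller than larger. Leaving out 1 tumor was enough, with 5 larger and 13 smaller without control 1, 6 and 11 without control 3 and also without irradiated 1, 7 and 10 without irradiated 3, and 5 and 10 without irradiated 4. DESeq2 called 9 larger and 8 smaller. No direction is therefore drawn for the members as a set. Relative to the all-gene median, 20 of the 37 members lay above it in the reported fit.

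Rad51b, another homologous recombination gene, kept its direction and its call in all 16 settings tried. It was at 549, 637, 699 and 760 CPM in cycling tumor cells of irradiated tumors 1 to 4 and at 667, 634 and 430 CPM in those of controls 1 to 3, and non-cycling tumor cells gave 487, 615, 670 and 795 CPM and 599, 591 and 347 CPM. Within tumors, Rad51b was higher in cycling tumor cells in all but irradiated 4, and it was called higher. Across tumors the ranges of the 2 states nevertheless overlapped. Cycling macrophages, in contrast, had 174 to 293 CPM and non-cycling macrophages 29.9 to 46.9 CPM, with no overlap. The log2 fold change was 0.28 in tumor cells and 2.62 in macrophages, and the interaction was -2.04 ± 0.11 (SE; -2.68 to -1.89 over the settings). T/NK cells had 416 ± 86.4 CPM (SD, n = 7) in cycling and 81.4 ± 37.9 CPM in non-cycling cells (2.32). The 24 tumor markers summed to a median of 0.732 UMIs per 10000 in cycling and 1.10 in non-cycling macrophages, Xrcc5, a gene high in tumor cells, was at 2.57 and 2.24 CPM, and the part of stray tumor RNA in the Rad51b levels of macrophages was not tested.

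H2ax, whose product is phosphorylated around breaks, also had a smaller cycling difference in tumor cells in all 16 settings (-1.49 ± 0.14, SE). It stood at 96.9 ± 24.0 CPM in cycling tumor cells and 273 ± 75.3 CPM in cycling macrophages, and at 16.4 ± 4.23 and 11.1 ± 2.84 CPM in the non-cycling cells. Dclre1c was called larger in tumor cells in all 16 settings (0.91, 0.30 to 1.52), being lower in cycling than in non-cycling macrophages and not called in tumor cells. Fancd2 (1.85), Fanca (1.25) and Neil3 (1.20) had larger differences in tumor cells in the reported fit and values of -0.43, -0.13 and -1.21 with thinned cells, so no direction is drawn for them. Between T/NK cells and macrophages, 5 of 35 members had a smaller cycling difference in T/NK cells and 0 a larger one (8.36% and 0.722% of 10796 genes, 9.09% in either direction; all-gene median -0.28). DESeq2 called 2 smaller and 2 larger. Rpa2 was called in 15 of the 16 settings (-1.82 ± 0.30, SE): it was at 36.0 CPM in non-cycling T/NK cells and 7.98 CPM in non-cycling macrophages.

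Comparison of the classes at like cycling state showed that Dclre1c and Xrcc5 differed most, in opposite directions. Among cycling cells, 18 of the 37 genes were higher in tumor cells than in macrophages and 9 were lower (against 43.9% and 33.9% of 13558 genes, 77.9% in either direction), 27 in all, and 14 in all with stricter class gates. Over all genes the stricter gates called 5857, against 10558 in the reported fit. Among non-cycling cells, 15 of 36 were higher and 14 lower (against 45.3% and 40.9% of 15656 genes, 86.2% in either direction; 15 and 11 with DESeq2). In neither state did the share of members called, both directions together, exceed that of all genes. In both states 14 members were higher in tumor cells, among them 5 of the 6 end-joining genes (Xrcc5, Xrcc6, Xrcc4, Lig4 and Prkdc). In both states 7 were lower (Chek2, Dclre1c, Lig1, Parp1, Parp2, Polb and Rad54l). These counts over both states were not set against all genes, so whether they exceed the background was not tested.

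Xrcc5 was at 63.7, 58.5, 72.9 and 76.1 CPM in non-cycling tumor cells of irradiated tumors 1 to 4 and 59.1, 62.8 and 60.9 CPM in controls 1 to 3. Non-cycling macrophages of the same tumors had 1.89, 1.09, 2.71 and 1.97 CPM and 2.54, 1.59 and 3.87 CPM. No tumor came near the other class, and the log2 fold change was 4.40 ± 0.17 (SE) in non-cycling and 4.48 ± 0.21 (SE) in cycling cells. T/NK cells lay between the 2 classes when not cycling, at 38.1 ± 8.26 CPM, 3.68 above macrophages on the log2 scale. Xrcc6, the partner of Xrcc5 in the KU heterodimer, differed far less (log2 fold change 0.82, with TMM scaling). It was at 20.6 ± 1.65 CPM in non-cycling tumor cells and 8.47 ± 1.05 CPM in non-cycling macrophages, without that scaling.

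Dclre1c showed the reverse. Non-cycling macrophages had 311, 274, 235 and 213 CPM in irradiated tumors 1 to 4 and 242, 243 and 326 CPM in controls 1 to 3, whereas non-cycling tumor cells had 5.14 to 15.4 CPM. The log2 fold change of tumor cells over macrophages was -5.25 ± 0.25 (SE) in non-cycling and -4.53 ± 0.18 (SE) in cycling cells, and that of T/NK cells over macrophages was -3.22 and -2.68. Macrophage markers were present in tumor cells at a median of 0.717 (cycling) and 1.25 (non-cycling) UMIs per 10000, against 186 and 262 in macrophages, and the part of stray macrophage RNA in the low tumor level of Dclre1c was not tested.

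Other members with a class difference were Rad51b (3.48 higher in non-cycling tumor cells than in non-cycling macrophages, 1.23 in cycling cells) and Rad52 (2.20 and 2.00). Brca2 was 1.53 higher in cycling tumor cells than in cycling macrophages (66.8 ± 11.1 against 21.3 ± 4.44 CPM), whereas Brca1, its upstream partner, was 0.28 lower (67.8 ± 7.36 against 75.1 ± 9.22 CPM). Parp1 was at 24.0 ± 4.03 CPM in non-cycling tumor cells and 74.6 ± 4.50 CPM in non-cycling macrophages (-2.10), and at 56.7 ± 6.20 and 120 ± 7.93 CPM in the cycling cells (-1.21). Chek2 was likewise lower in cycling tumor cells (12.6 ± 1.60 against 32.1 ± 2.84 CPM, -1.49). Fancd2 was 1.84 lower in non-cycling tumor cells than in non-cycling macrophages at levels under 1 CPM, and 0.18 higher with thinned cells.

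For T/NK cells against macrophages, 13 of 36 members were higher and 9 lower among non-cycling cells (28.3% and 38.0% of 13340 genes, 66.3% in either direction). In cycling cells 5 of 35 were higher and 4 lower (17.4% and 26.3% of 9671 genes). The kinase genes Atm (39.1 ± 15.3 against 12.4 ± 1.81 CPM, 1.25), Atr (1.14) and Prkdc (1.16) were higher in non-cycling T/NK cells, as was Rpa2 (1.72), and Parp1 was lower (-1.65). Of the 8 damage kinases and mediators, 3 were higher there, 1 was lower and 4 were not called (median -0.06). Fanci (2.17) was called with 11 UMIs in non-cycling T/NK cells, and Rad54l (-2.92) with 1.

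**Figure D3:**
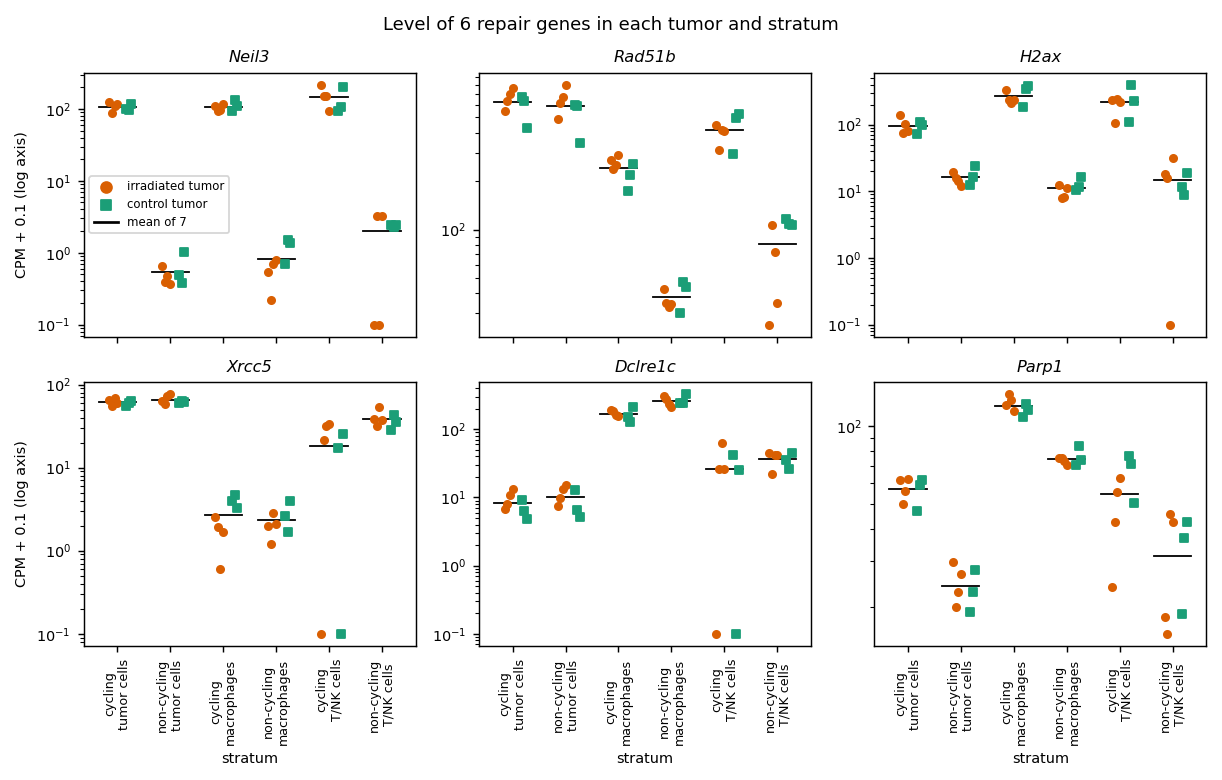
Level of Neil3, Rad51b, H2ax, Xrcc5, Dclre1c and Parp1 in each of the 7 tumors (orange circles irradiated, green squares control, black bars the mean) for cycling and non-cycling cells of the 3 classes, as CPM + 0.1 on a log axis. Xrcc5 is at 2.24 CPM in non-cycling macrophages and 64.8 CPM in non-cycling tumor cells, Dclre1c at 263 and 10.0 CPM, and the 2 groups intermix in most strata.

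To place the genes along the cell cycle, the cycling cells of each tumor were ranked by the ratio of S phase to G2/M transcripts from 2 lists that contain no member, and the cells at the upper end (S-leaning) and at the lower end (G2/M-leaning) were compared, 785 tumor cells and 260 macrophages at each end. Of the 37 genes, 21 were higher in S-leaning tumor cells, 9 were higher in G2/M-leaning tumor cells and 7 were not called (17.5% and 14.8% of 12873 genes). In macrophages the counts were 14, 3 and 14 of 31 (11.4% and 10.7% of 7989 genes). Each of the 17 genes called in macrophages was called in the same direction in tumor cells. The share of all genes called alike in both classes was not counted. These ends are ranges of a score rather than phases, and 236 tumor cells and 60 macrophages lay within 0.25 (log2) of the S cut. With stricter class gates, which kept fewer cells, 3 members were called in tumor cells and 10 in macrophages. Over all genes 112 and 457 were called with these gates, against 4159 and 1765 in the reported fits.

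Homologous recombination leaned to S phase, with 10 of 11 genes higher in S-leaning tumor cells (median 0.57), and 6 of 9 in macrophages (median 0.98). Rpa2 was higher by 1.44 in tumor cells and 2.25 in macrophages, Rpa1 by 1.21 and 1.55, and Brca1 by 0.82 and 0.84. Ung differed most of all members. In S-leaning tumor cells it was at 49.6, 60.6, 55.0 and 46.3 CPM in irradiated tumors 1 to 4 and 42.8, 34.7 and 44.6 CPM in controls 1 to 3, and in G2/M-leaning cells at 0.245 to 2.16 CPM (5.26 ± 0.16, SE). In macrophages the 2 ends held 198 and 1 Ung UMIs, a ratio of pooled levels of 209 (95% exact interval 37.0 to 8286, counting error only). Msh6 (1.53 in tumor cells and 1.76 in macrophages), Lig1 (1.12 and 3.13), Chek1 (1.21 and 2.18) and Prkdc (0.91 and 1.59) also leaned to S phase, as did Atm (0.61 and 1.31).

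H2ax leaned to G2/M. It was at 251, 138, 189 and 135 CPM in G2/M-leaning tumor cells of irradiated tumors 1 to 4 and 134, 189 and 171 CPM in controls 1 to 3, against 31.9 to 57.9 CPM in S-leaning cells (-1.97 ± 0.07, SE). In macrophages the levels were 409 ± 103 and 88.2 ± 40.9 CPM (-2.23 ± 0.14, SE). With thinned cells the values were -1.27 and -1.31, both still called. The other members higher in G2/M-leaning tumor cells were Chek2 (-1.07), Dclre1c (-1.07), Lig4 (-0.65), Mdc1 (-0.43), Xrcc4 (-0.37), Lig3 (-0.36), Neil3 (-0.29) and Trp53bp1 (-0.25). Neil3 and Dclre1c had the same direction in macrophages (-0.90 and -0.50), neither of them called there with thinned cells. Fancd2, Fanci and Atr were level between the ends in tumor cells, at -0.04, -0.02 and -0.02, and were not called.

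**Figure D4:**
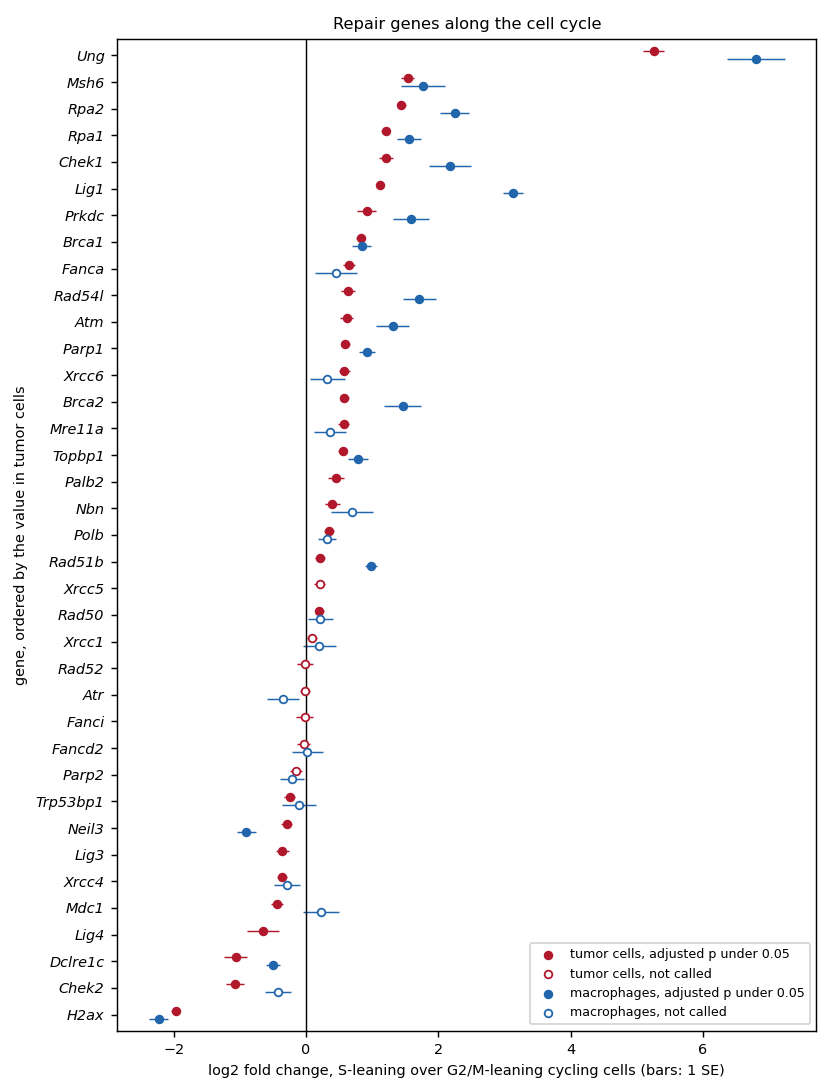
Log2 fold change of S-leaning over G2/M-leaning cycling cells for each repair gene in tumor cells (red) and macrophages (blue), with bars of 1 SE and filled points for an adjusted p below 0.05, ordered by the value in tumor cells. Ung is at the top (5.26 and 6.80) and H2ax at the bottom (-1.97 and -2.23).

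Irradiated and control tumors were compared within 5 strata, so that the share of cells called cycling did not enter. The call moved with depth: 2360 of 14717 tumor cells were called cycling, and 580 of 13994 with thinned cells. Cells in cycle may therefore remain among those called non-cycling, and their share in each tumor was not tested. No member was called in any of them, and neither was any other gene (0% of 14060, 16276, 9569, 12169 and 6143 genes in cycling tumor cells, non-cycling tumor cells, cycling macrophages, non-cycling macrophages and non-cycling T/NK cells), nor with DESeq2. At an unadjusted p under 0.05, edgeR's test gave 2 of 37, 0 of 37, 2 of 34, 0 of 33 and 1 of 16 members in the same order. Among all genes tested it gave 244, 214, 631, 573 and 323, again in that order. Cycling T/NK cells fell below 20 cells in 6 of the 7 tumors and were not fitted. The median standard error of a member's log2 fold change was 0.14, 0.16, 0.20, 0.17 and 0.31, in the same order.

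In cycling tumor cells the log2 fold changes of irradiated over control tumors ran from -0.05 to 0.51, with 30 of 37 above 0. Their median was 0.11, against 0.01 over all genes, and 70 of 114 further repair genes lay above 0 (median 0.04). Above the all-gene median lay 29 members, and 23 (without control 1) to 34 (without control 3) when 1 tumor was left out. Prkdc had the smallest p. It was at 31.8, 36.9, 43.7 and 46.1 CPM in irradiated tumors 1 to 4 and 33.6, 28.6 and 26.9 CPM in controls 1 to 3 (0.33 ± 0.12, SE; adjusted p = 0.999), so the groups overlapped. Lig4, which joins the ends that DNA-PK aligns, was at 3.43 to 4.74 CPM in irradiated and 2.43 to 2.74 CPM in control tumors (0.51 ± 0.22, SE; adjusted p = 0.999), and these did not overlap. The log2 ratio of group means for Lig4 was 0.54 within the 3 libraries with the shallowest cells (irradiated 1, control 2 and control 3) and 0.44 within the other 4, and for Prkdc 0.19 and 0.32. Lig4, Lig1 and Xrcc1 were the 3 of 37 members with no overlap between groups in this stratum, where 3.35% of all genes had none. In non-cycling tumor cells the 4 members without overlap were Lig4, Lig3 and Mre11a, which lay higher, and Palb2, which lay lower (2.42% of genes). Lig4 was apart in both tumor strata, but these come from the same 7 tumors. The share of all genes apart in both was not counted. In non-cycling cells Lig4 was at 1.93 to 3.00 against 1.26 to 1.92 CPM (0.40), so the nearest tumors of the 2 groups almost met. It rested on 330 UMIs in cycling and 416 in non-cycling tumor cells over the 7 tumors. The smallest p-values of edgeR's test in non-cycling tumor cells were those of Lig3 (0.21 ± 0.11, SE), Chek1 (-0.42 ± 0.25, SE) and Xrcc4 (0.19 ± 0.12, SE), each with an adjusted p of 0.991. With thinned cells these values were 0.19, -0.18 and 0.12.

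In cycling macrophages Ung, Fanca and Rpa1 did not overlap between groups (3 of 34 tested, against 6.44% of genes). Ung was at 21.5, 22.1, 21.8 and 16.7 CPM in irradiated tumors and 12.6, 14.5 and 15.4 CPM in controls (0.51 ± 0.21, SE; adjusted p = 0.727; log2 ratios of 0.51 and 0.66 within the shallow and the other libraries), and Fanca at 12.9 to 20.6 against 9.86 to 12.7 CPM (0.55 ± 0.25, SE; adjusted p = 0.741). In non-cycling macrophages 0 of 33 members were apart (5.23% of genes), and the smallest p-values belonged to H2ax (-0.40), Polb (0.18) and Xrcc1 (-0.22). In non-cycling T/NK cells Mre11a (43.6, 37.6, 51.2 and 51.8 against 37.2, 23.9 and 28.3 CPM) and Xrcc4 were apart (2 of 16, against 6.23%). Rad51b there was at 25.4, 106, 72.0 and 34.6 CPM in irradiated tumors 1 to 4 and at 116, 109 and 106 CPM in controls 1 to 3. Irradiated 2 reached the lowest control and the other 3 irradiated tumors lay below it, on 253 UMIs in all (-1.05 ± 0.37, SE; adjusted p = 0.928). With stricter class gates the value was -2.75 (edgeR adjusted p = 0.0277), and with every gene tested -1.02 (edgeR adjusted p = 0.0251). These settings called 2 and 24 genes in all, where the reported fit called 0. Within the 3 shallow libraries the log2 ratio was -2.06 and within the other 4 it was -0.71.

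**Figure D5:**
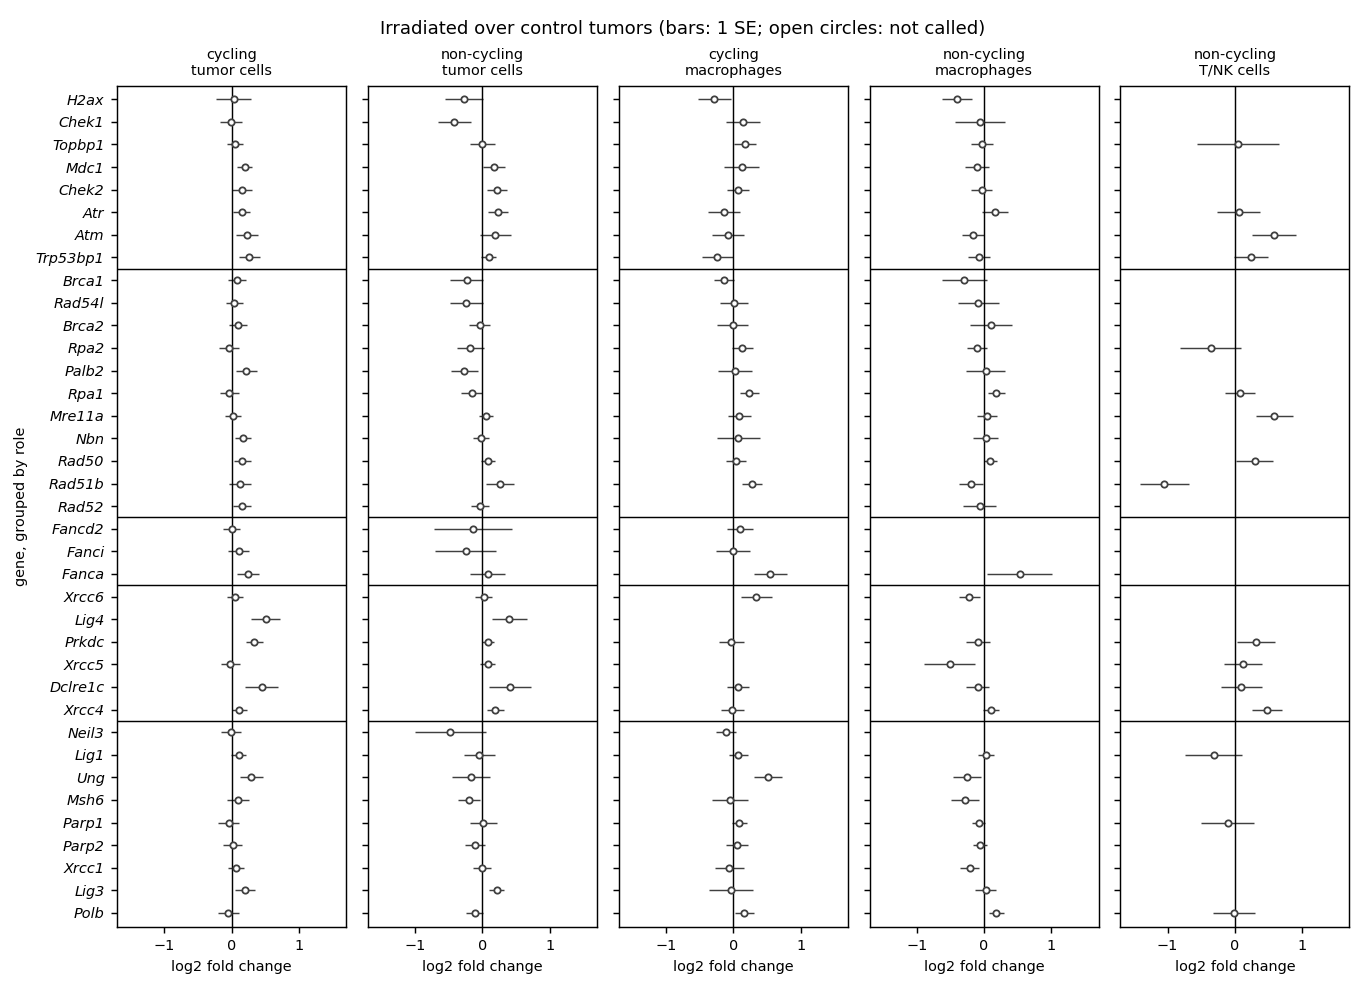
Log2 fold change of irradiated (4 tumors) over control (3 tumors) for each repair gene in 5 strata, with bars of 1 SE, genes grouped by role as in the plot of levels. All points are open because none had an adjusted p below 0.05, and most lie within 0.25 of 0 in cycling tumor cells (32 of 37).

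Since most members were higher in cycling tumor cells and macrophages, the share of cycling cells was compared as well. It was 17.5% ± 3.87 of tumor cells in the irradiated group (SD, n = 4) and 15.6% ± 4.30 in the control group (SD, n = 3) (two-sided exact permutation p = 0.571, adjusted over 3 classes 0.571). Leaving out 1 tumor moved this difference of 1.88 percentage points to between 0.399 (without control 2) and 4.34 (without control 3). In macrophages the shares were 8.07% ± 1.78 and 6.44% ± 0.858 (exact permutation p = 0.2, adjusted 0.3), and in T/NK cells 7.70% ± 4.56 and 3.33% ± 1.66 (exact permutation p = 0.114, adjusted 0.3), differences of 1.64 and 4.37 points that became 2.49 without irradiated 1 and 2.42 without irradiated 2. The smallest p that 35 splits allow is 0.0286. Within the 3 shallow libraries the irradiated tumor had 1.57 percentage points fewer cycling tumor cells than the mean of the controls (-1.57), 0.465 points fewer cycling macrophages (-0.465) and 0.368 points more cycling T/NK cells, so the direction did not hold there for tumor cells and macrophages. With all cells thinned to 3000 UMIs the cycling shares were 4.98% ± 1.60 and 3.75% ± 0.322 of tumor cells. They were 3.97% ± 0.739 and 3.62% ± 0.661 of macrophages, and 6.01% ± 2.09 and 3.34% ± 1.96 of T/NK cells. The differences of these 2 classes were then 0.350 and 2.66 points (exact permutation p = 0.514 and 0.143, not adjusted). Whether irradiation acted differently on the genes in cycling and in non-cycling tumor cells was tested as an interaction. In it 0 of 37 members were called (0.0124% of 16148 genes), and 0 by DESeq2. With edgeR's test 2 members had an unadjusted p under 0.05, against 430 of all genes tested. Chek1 (0.36), Palb2 (0.44) and Brca1 (0.26) had the smallest p-values.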

How the data were processed

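Single-cell 3' libraries of 7 tumors were compared. The authors deposited raw UMI counts per gene and cell, with no normalization. The file headers name Cell Ranger 8.0.0 and the study's methods an earlier release with build mm10. The submitters' processing notes also list Seurat 4.4. No column of the authors' own comparisons was used.

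Cells within 3 median absolute deviations of their library's medians were kept. Scrublet marked 564 cells (1.43%), with 0.03% in irradiated 1 and 0.11% in irradiated 3, where it did not work, so its calls were left out only as an alternative. A tumor cell had UMIs of at least 6 of 24 tumor markers and at most 6 macrophage markers, with no Xist or Ptprc UMI. A macrophage had at least 7 of 15 markers and at most 4 tumor markers, and a T/NK cell at least 3 of 15 with at most 4 of either other list. Libraries shared at most 19 barcodes. Median UMIs per cell and stratum totals give the depth, and intervals cover counting error only.

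UMI counts were summed per tumor and stratum and tested with edgeR 4.0.16 in R 4.3.3 (filterByExpr, TMM, robust quasi-likelihood fit, Benjamini-Hochberg over all genes tested, threshold 0.05), with the tumor as a block for comparisons within libraries and the group alone for irradiated against control. A stratum needed 20 cells per tumor for the comparison of groups. Standard errors are the log2 fold change over the square root of F. DESeq2 1.42.0, its size factors, every gene with a UMI, no cell filter, cells thinned to 3000 UMIs, 2 or more UMIs of Mki67 and Top2a together, stricter class gates and leaving out each tumor were the alternatives, and the split into 3 shallow and 4 other libraries was added after seeing the data. The scripts were tested on simulated data. Cells were handled with scanpy 1.11.5, numpy 2.4.6, scipy 1.17.1 and pandas 2.3.3 in Python 3.11.15.

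All 37 members may be named by role. Values by tumor or SE were given first for the 8 called members with the largest change in cycling against non-cycling tumor cells at a mean of at least 5 CPM in cycling cells and the 3 with the smallest, the 3 called members with the largest change in each direction elsewhere, and the 3 smallest p-values where none was called. Values for other members were chosen after they were seen. The members, lists and tests were chosen with earlier results of these data known.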

Additional observations from a re-analysis of the deposited data

Results flagged for a closer look

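Of 18 groups of 4 tumors checked for a tumor far from the rest of its group, 3 had one, and chance gives about 1 in 20. Ung in cycling macrophages was 16.7 CPM in irradiated 4, below the other irradiated tumors. Polb in non-cycling macrophages was 63.7 CPM in irradiated 1, and Xrcc4 in non-cycling T/NK cells was 65.8 CPM in irradiated 2, each the lowest irradiated value.

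The cycling difference of several members differed between cell classes by the interaction test. Against macrophages, tumor cells had a smaller difference for Rad51b (-2.04), H2ax (-1.49) and Rad50 (-0.21) and a larger one for Fancd2 (1.85), Fanca (1.25) and Neil3 (1.20). Rad51b and H2ax were called in 16 of 16 settings and Rad50 in 14 (-0.82 without control 3), whereas the last 3 changed sign with thinned cells. Against macrophages, T/NK cells had a smaller difference for Rpa2 (-1.82), Xrcc6 (-1.51) and Atr (-1.25), called in 15, 6 and 10 of the 16 settings. The cause was not tested.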

How the results depend on the processing

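Of the alternatives for single named genes, 1192 kept direction and side of the threshold, 44 lost the call, 4 gained one and 18 changed sign. Of those for counts and shares, 286 stayed within the limits, 23 moved and 2 changed sign.

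With thinned cells the number of members called was 8 for cycling T/NK cells, 5 for cycling T/NK cells against macrophages, 14 for the interaction of tumor cells with macrophages and 1 for that of T/NK cells. Over all genes the numbers were 634, 2770, 3545 and 177, against 1328, 4220, 7179 and 981 in the reported fits. With stricter class gates the numbers of members were 5, 1, 10 and 1, with 14 for cycling tumor cells against macrophages, 12 for non-cycling T/NK cells against macrophages, 3 and 10 for the phase comparison in tumor cells and macrophages, and 1 for irradiated against control non-cycling T/NK cells, which testing every gene also gave (1). Over all genes the stricter gates called 99, 1202, 2937, 323, 5857, 5113, 112, 457 and 2, in the order given. Testing every gene called 24 in the last of these comparisons. The 2-UMI cycling rule gave 14 members for cycling T/NK cells against macrophages and 3 for the T/NK interaction, for which every gene gave 1 and DESeq2 size factors gave 2. Over all genes these settings called 5261, 691, 517 and 542, in that order. The number of genes tested changed with the setting, so these are counts and not shares. The split of the tumor cell interaction, 21 larger and 3 smaller as reported, was 9 and 8 with DESeq2, 10 and 8 with its size factors, 6 and 12 without the Scrublet calls, 7 and 12 with no cell filter, 6 and 11 with every gene and 1 and 13 with thinned cells, and it turned in 5 of the 7 fits that left out 1 tumor.

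Leaving out 1 tumor gave 32 to 33, 29 to 30 and 10 to 13 called members for cycling against non-cycling tumor cells, macrophages and T/NK cells. It gave 25 to 29 and 26 to 29 for cycling and non-cycling tumor cells against macrophages, 8 to 10 and 19 to 22 for T/NK cells, 15 to 22 (5 larger and 10 smaller without irradiated 4) and 2 to 5 (2 without irradiated 3) for the interactions, 26 to 29 and 17 to 17 for the phase comparison, and 0 to 0 for irradiation. These counts of members were not set against those of all genes. The cycling share difference ran from 0.399 to 4.34, 1.13 to 2.49 and 2.42 to 6.02 percentage points in tumor cells, macrophages and T/NK cells. Within the 3 shallow libraries it was -1.57, -0.465 and 0.368.

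Sign changes of single genes were few. In cycling against non-cycling tumor cells, Polb was 0.00089 without irradiated 3 and 0.022 without control 1 (-0.063 to 0.022 over the tumors left out), and -0.20 with thinned cells, where it was called lower. Rad52 was -0.057 with no cell filter, -0.078 with the 2-UMI rule, -0.096 with every gene, -0.019 with DESeq2 and with its size factors, -0.035 without irradiated 1 and -0.054 without irradiated 4 (-0.054 to 0.057 over the tumors left out). Dclre1c was 0.38 with thinned cells and 0.45 with stricter gates. With thinned cells Fancd2 was 0.18 in non-cycling tumor cells against macrophages, and the interactions of Fancd2, Fanca and Neil3 were -0.43, -0.13 and -1.21. Xrcc1 was 0.029 for irradiation in non-cycling macrophages with stricter gates, and the irradiation difference between states was -0.028 for Chek1 with stricter gates and -0.10 for Brca1 with thinned cells. The cause was not tested.

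Replicate numbers did not pair the tumors. Deviations of same-numbered tumors correlated between -0.51 and 0.083, and with the replicate number as a block 0 members were called in each stratum. T/NK cells had 5 to 20 cycling cells per tumor, which limits what the tests on them can show.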
